A study of Mus musculus with 6 samples.

Results

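Transcripts of basophils, mast cells and eosinophils were followed through 10 genes taken from the deposited table by symbol: Mcpt8, Prss34, Cpa3, Ms4a2, Fcer1a, Epx, Prg2, Ear2, Gata2 and Il5ra. All 10 are among the 17382 genes of the table. The cells were grown for 3 days with 40 ng/mL M-CSF from the marrow of C57BL/6 mice aged 2 months, which favours macrophages and their precursors, and were profiled by strand-specific total RNA sequencing. Both groups carry the genotype PD-L1 flox/flox; the 3 libraries labelled knockout carry lysozyme-Cre in addition, and the 3 littermate libraries labelled wild type do not. The Cre of such mice is driven by the lysozyme gene, which is active in macrophages and neutrophils, so the model targets those cells and not the lineages described here in particular. The design text speaks of biological triplicates; the labels do not say whether each library is a single mouse.

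Basophils, mast cells and eosinophils are the granulocytes of allergic and anti-parasite responses. Basophils and mast cells carry the high-affinity receptor for IgE, whose α chain binds the antibody, whose β chain amplifies the signal and whose γ chain, shared with other Fc receptors, transmits it; crosslinking releases histamine and granule proteases. Eosinophils depend on interleukin 5 and store toxic cationic proteins. The marrow holds progenitors of these cells, which use GATA factors, so a marrow culture can hold precursors and may hold mature cells of some of these lineages.

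Sequence upstream of the transcription start is shown for 6 of the genes, because Prss34 and Mcpt8 are the basophil proteases followed below and because the other windows hold the letters that GATA factors are known to bind. RefSeq windows (GRCm38.p6) were matched for 9 of the 10 genes. The 180 bases before the start are printed 5′ to 3′, with each match to AGATAA or TGATAA on either strand in capitals; the motifs share all letters but the first, so on one strand they cannot begin at the same base.
Prss34 (chr17:25298214-25298393, plus strand): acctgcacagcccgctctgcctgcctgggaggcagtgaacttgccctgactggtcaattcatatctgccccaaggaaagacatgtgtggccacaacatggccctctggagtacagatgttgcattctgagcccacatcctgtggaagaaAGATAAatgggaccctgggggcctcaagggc
Mcpt8 (chr14:56085198-56085377, minus strand): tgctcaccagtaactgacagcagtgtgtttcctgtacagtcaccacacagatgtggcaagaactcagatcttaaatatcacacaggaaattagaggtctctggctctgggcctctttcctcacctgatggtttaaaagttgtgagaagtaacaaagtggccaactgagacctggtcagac
Cpa3 (chr3:20242182-20242361, minus strand): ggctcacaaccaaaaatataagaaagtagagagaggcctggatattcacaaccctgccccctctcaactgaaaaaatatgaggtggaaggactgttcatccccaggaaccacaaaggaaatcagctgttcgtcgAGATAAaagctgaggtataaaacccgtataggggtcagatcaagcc
Ms4a2 (chr19:11623720-11623899, minus strand): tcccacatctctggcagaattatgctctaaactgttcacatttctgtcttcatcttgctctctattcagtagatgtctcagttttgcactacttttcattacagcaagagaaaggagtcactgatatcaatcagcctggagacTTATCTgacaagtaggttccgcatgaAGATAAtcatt
Fcer1a (chr1:173227230-173227409, minus strand): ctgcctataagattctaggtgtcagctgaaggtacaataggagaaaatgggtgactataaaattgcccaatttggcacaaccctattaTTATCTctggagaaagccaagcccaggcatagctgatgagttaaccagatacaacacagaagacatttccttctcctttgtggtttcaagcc
Il5ra (chr6:106749038-106749217, minus strand): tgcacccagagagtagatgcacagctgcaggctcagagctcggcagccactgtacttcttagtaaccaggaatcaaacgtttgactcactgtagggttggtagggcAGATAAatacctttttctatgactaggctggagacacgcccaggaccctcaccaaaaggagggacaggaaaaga
In Prss34 the match began 31 bases before the start, in Cpa3 46, in Il5ra 74 and in Fcer1a 92 bases before it. Ms4a2 held 3 matches in the 250 bases before its start, of which 2 are in the stretch shown. Mcpt8 had none in that window, nor had Epx, Ear2 or either start of Gata2. In all, 5 of 10 windows of these genes held the motif (50%), against 9.73% of 12666 windows of tested genes and 16.6% of all 32851 windows of the same length. A match describes letters and is not a site of binding.

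Levels are given as TPM (abundance scaled to the same total in each library and corrected for gene length, so that genes can be set side by side), and the reads behind them were recovered from these values. Library depth was 52355659 to 77318131 reads, and the 10 genes together had 11096 reads in the 6 libraries. Every one of the 10 genes exceeded 0.1 TPM in all 6 libraries and passed the filter on low values. The lineage markers of the labelled myeloid cells were high: the macrophage genes Cd68 and Csf1r averaged 2196 and 1205 TPM over the 6 libraries. Cd274, the gene of PD-L1, had 19.3, 19.2 and 29.2 TPM in the libraries labelled knockout, against 17.9, 15.5 and 23.7 TPM in those labelled wild type. It was thus not lower over its whole length, and groups are named by their labels throughout. Lyz2, the lysozyme gene of macrophages and neutrophils, had 19101, 19354 and 13232 TPM in the libraries labelled knockout, against 26707, 27493 and 40358 TPM in wild type. Its groups did not overlap, at a log2 difference of -0.87 ± 0.27 (SE; adjusted p = 1.0, limma). Summed macrophage markers, which include Lyz2, did not overlap either. They came to 19086 to 26512 TPM under the knockout label, against 33466 to 47746 TPM in wild type. Lyz2 alone made up most of the macrophage sum in every library, and it was the only macrophage marker whose groups did not overlap. Of the 10 macrophage markers, 6 lay higher and 4 lower under the knockout label, with a median of 0.01 on the log2 scale. The sums overlapped for B cells (57.4 to 97.9 TPM under the knockout label, against 91.8 to 118 TPM in wild type) and for red cell precursors (38.7 to 74.4 TPM under the knockout label, against 61.2 to 110.05 TPM in wild type). They overlapped too for myeloid progenitors (240.2 to 304 TPM under the knockout label, against 229 to 333 TPM in wild type) and megakaryocytes (798 to 1155 TPM under the knockout label, against 975 to 1075 TPM in wild type). The libraries divided along a first component (44.3% of the variance) with knockout 1, knockout 2 and wild type 3 on one side and knockout 3, wild type 1 and wild type 2 on the other.

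The 10 genes fell into 3 ranges of level that did not overlap in any library. Prg2 stood alone at the top, with 41.4 TPM in its lowest library. Prss34, Ear2, Mcpt8 and Cpa3 followed, from a mean of 6.64 TPM over the 6 libraries for Prss34 to 2.93 TPM for Cpa3, and each of these overlapped its neighbour in this order. Epx, Ms4a2, Gata2, Il5ra and Fcer1a lay lowest, from 0.922 TPM for Epx to 0.377 TPM for Fcer1a, again with overlapping neighbours. The ranges themselves were apart: the highest Prss34 value was 8.52 TPM, the lowest Cpa3 value 1.88 TPM and the highest Epx value 1.19 TPM. Prg2 alone made up 66.0% to 72.5% of the summed TPM of the 10 genes.

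**Figure D1:**
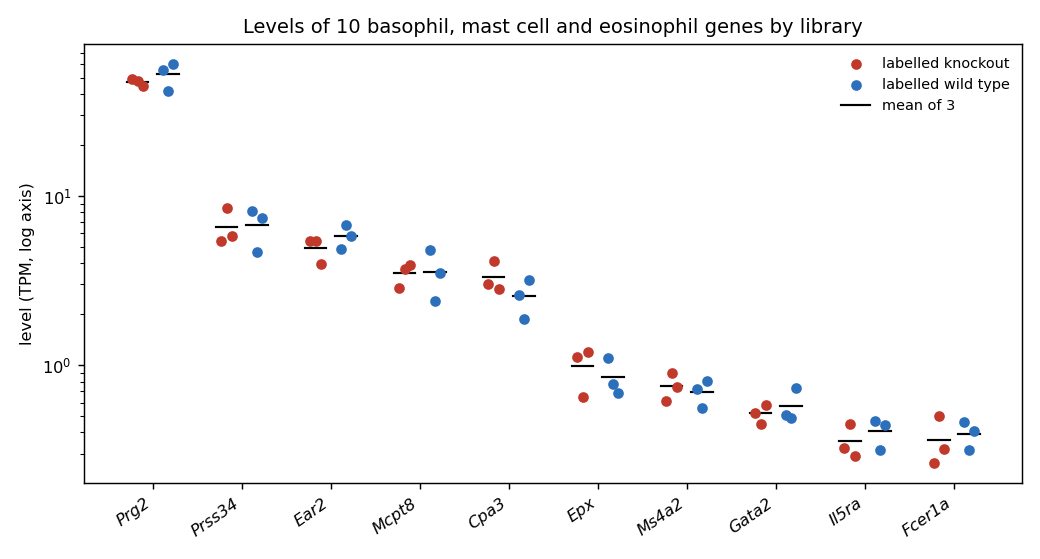
Level of each of the 10 genes in TPM (log axis) in the 3 libraries labelled knockout (red, left) and the 3 labelled wild type (blue, right), ordered by mean; black lines are means of 3. Prg2 lies above 41 TPM, 4 genes between 1.88 and 8.52 TPM and 5 genes at 1.19 TPM or less, and the groups overlap for every gene.

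None of the 10 genes differed between genotypes beyond the spread of the libraries. Among them 0 passed an adjusted p under 0.05 (limma, Benjamini-Hochberg over all 13722 genes tested), where 0% of all genes did, and 0 had an unadjusted p under 0.05, where 2.18% of all genes did. A further fit to the recovered reads, by limma-voom, called 0 of the 10 with 0 at an unadjusted p under 0.05. The groups did not separate for any of the 10, where 5.12% of all genes had groups that did not overlap. The authors' deposited table calls 0 of the 10, where it calls 0.265% of its genes, and the smallest unadjusted p it gives among the 10 is 0.240, for Cpa3. Log2 differences (labelled knockout minus labelled wild type, on log2(TPM + 0.1), which understates the change of low genes) were positive for 4 genes and negative for 6, from -0.23 for Ear2 to 0.38 for Cpa3. Their median was -0.07, against 0.00 over all genes tested, of which 51.1% were positive.

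The size of change that these libraries leave possible is given by the 95% intervals. For all 10 genes the limma interval lay within 1 log2 unit of 0, between -0.74 (the lower bound of Fcer1a) and 0.95 (the upper bound of Cpa3). With limma-voom this held for 8 of 10, the exceptions being Fcer1a at its lower bound and Cpa3 at its upper bound. An equal level was therefore not shown for any of them. In bulk RNA, fewer cells of a type and less RNA per cell cannot be told apart.

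**Figure D2:**
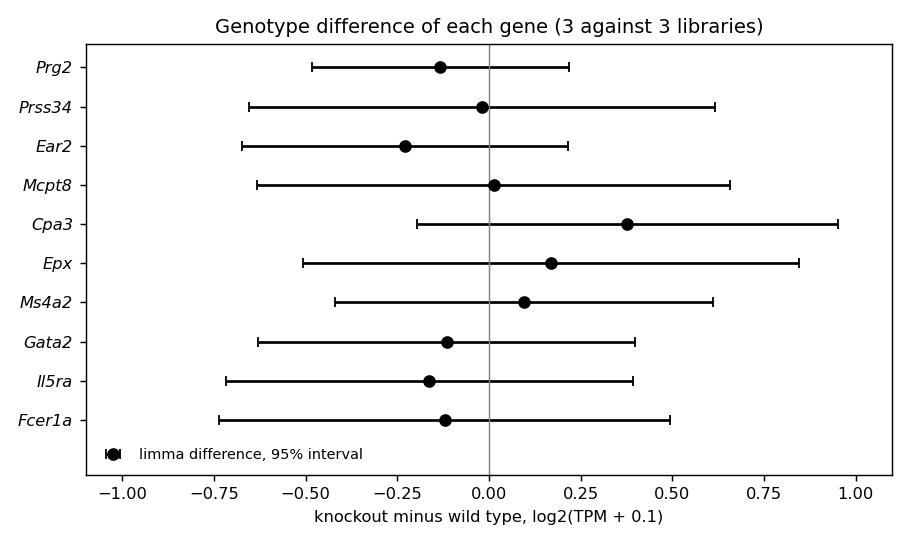
Log2 difference of each gene, labelled knockout minus labelled wild type, on the log2(TPM + 0.1) scale; points are limma estimates from 3 against 3 libraries and bars their 95% intervals. Every interval includes 0, the narrowest being that of Prg2 (-0.48 to 0.22).

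Basophil proteases were present in every culture at nearly equal group means. Mcpt8, a serine protease of mouse basophils (chr14:56082164-56085197, mm10, minus strand), had 2.86, 3.70 and 3.88 TPM in the libraries labelled knockout, against 4.79, 2.38 and 3.50 TPM in those labelled wild type. Its log2 difference was 0.01 ± 0.27 (SE; adjusted p = 1.0, limma), and the highest and the lowest of the 6 values were both in wild type. Prss34, a basophil tryptase-like protease (chr17:25298394-25300161, plus strand), had 5.42, 8.52 and 5.79 TPM in the libraries labelled knockout, against 8.12, 4.65 and 7.35 TPM in wild type. Its log2 difference was -0.02 ± 0.27. Knockout 2 and wild type 1 were high and wild type 2 low, so the spread lay inside the groups. The ratio of Prss34 to Mcpt8 stayed between 1.49 and 2.30 in the libraries labelled knockout and between 1.69 and 2.10 in wild type.

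Cpa3, the carboxypeptidase of mast cell granules that basophils and their progenitors also carry (chr3:20215616-20242181, minus strand), had the largest difference of the 10. It stood at 3.00, 4.12 and 2.84 TPM in the libraries labelled knockout, against 2.60, 1.88 and 3.17 TPM in those labelled wild type. Wild type 3 exceeded knockout 1 and knockout 3, so the groups overlapped, and the log2 difference of 0.38 ± 0.24 did not pass (adjusted p = 1.0, limma; n = 3 each). Single libraries moved it both ways: it was 0.18 without wild type 2 and 0.22 without knockout 2, but 0.48 without knockout 3 and 0.54 without wild type 3, and it passed in none of these.

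Proteases that mark mature mast cells were close to absent. The chymases Cma1, Mcpt2 and Mcpt4 and the tryptases Tpsab1 and Tpsb2 had 0, 0 and 2 reads in sum in the libraries labelled knockout and 2, 4 and 1 reads in those labelled wild type. Over the 6 libraries that is 9 reads for the 5 mast cell genes and 1757 reads for the basophil pair Mcpt8 and Prss34. A library with 0 reads allows up to 3 reads, or 0.0388 to 0.0573 CPM, and covers counting error only. The name mast cell for this group of genes rests on genes that basophils and progenitors share, such as Cpa3, Kit (the stem cell factor receptor, 3.11 TPM over the 6 libraries) and Hdc, the enzyme that makes histamine (7.70 TPM). Of 11 mast cell markers in the table, 5 passed the filter on low values. Summed over each marker list, mast cell genes came to 14.5 to 16.3 TPM under the knockout label, against 10.8 to 15.9 TPM in wild type. Basophil genes came to 41.9 to 52.0 TPM under the knockout label, against 33.5 to 49.2 TPM in wild type. The largest part of each basophil sum was Il3ra, a chain of the interleukin 3 receptor, at 18.3 to 33.1 TPM. Mcpt8 and Prss34 had 2.38 to 4.79 and 4.65 to 8.52 TPM. Eosinophil genes came to 67.8 to 74.9 TPM under the knockout label, against 70.4 to 87.9 TPM in wild type. Prg2 alone gave 41.4 to 60.2 TPM of the eosinophil sums, and Epx 0.651 to 1.19 TPM. The groups overlapped for all 3 lists.

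**Figure D3:**
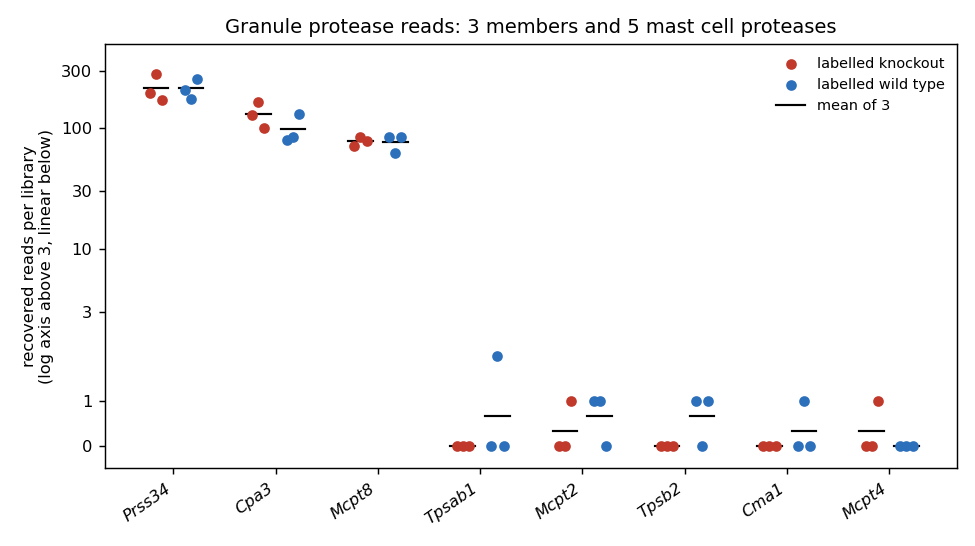
Recovered reads per library of the members Prss34, Cpa3 and Mcpt8 and of 5 mast cell chymases and tryptases, labelled knockout (red, left) and labelled wild type (blue, right); the axis is linear up to 3 reads and logarithmic above. The 3 members have 62 to 284 reads in each library, and no mast cell protease exceeds 2 reads in any.

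The α and β chains of the IgE receptor were both found at low level. Fcer1a, the α chain that binds IgE (chr1:173221271-173227229, minus strand), had 0.263, 0.498 and 0.321 TPM in the libraries labelled knockout, against 0.460, 0.313 and 0.409 TPM in those labelled wild type; these rest on 8 to 14 reads per library. Its spread over libraries, a coefficient of variation of 24.7% in CPM (reads scaled to library size), was no wider than the 31.4% that counting reads alone gives at this depth. Ms4a2, the β chain (chr19:11615521-11623719, minus strand), had 0.612, 0.894 and 0.746 TPM in the libraries labelled knockout, against 0.721, 0.560 and 0.807 TPM in wild type. Both were highest in knockout 2, and their log2 differences were -0.12 ± 0.26 and 0.10 ± 0.22 (Fcer1a and Ms4a2; adjusted p = 1.0 for each, limma). Fcer1g, the γ chain that macrophages use for their IgG receptors, stood at 1622 to 2115 TPM, which is 2223 to 2960 times the level of Ms4a2 in the same library.

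Downstream of this receptor, 18 genes of its signalling pathway, the 3 chains included, were all measured, and 0 rose and 0 fell. Their median log2 difference was 0.02, with 10 positive and 8 negative. Among markers of T and NK cells, 5 of 6 measured had a positive difference, and their summed level was 3.16 to 5.27 TPM under the knockout label, against 2.15 to 2.29 TPM in wild type, with Cd3e at 0 reads in wild type 3. Gzmb, a granzyme on the protease list, is itself among these T and NK cell markers and counts in their sum. It had 0.355 ± 0.121 TPM under the knockout label, against 0.016 ± 0.014 TPM in wild type (SD, n = 3 each). In wild type it rested on 0, 1 and 1 reads, and it did not pass (adjusted p = 0.47, limma). The part of T and NK cells in that value was not tested. The kinases Lyn and Btk, shared with macrophages and B cells, differed by 0.06 ± 0.07 and 0.03 ± 0.08 on the log2 scale.

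Eosinophil granule genes ranged from the abundant Prg2 to the scarce Epx. Prg2, which encodes major basic protein (chr2:84980461-84983632, plus strand), had 48.8, 47.8 and 44.7 TPM in the libraries labelled knockout, against 55.3, 41.4 and 60.2 TPM in those labelled wild type. The 3 values labelled knockout lay inside the range of wild type, and the log2 difference was -0.13 ± 0.15. With 910 to 1444 reads per library this gene was the most precisely counted: its coefficient of variation of 14.4% exceeded the 3.01% from counting alone. Without wild type 2 the difference was -0.29 with an unadjusted p of 0.023 and an adjusted p of 1.0 (limma). Epx, the eosinophil peroxidase (chr11:87863998-87875536, minus strand), had 1.12, 0.651 and 1.19 TPM in the libraries labelled knockout, against 1.11, 0.776 and 0.688 TPM in wild type. The log2 difference was 0.17 ± 0.28. Knockout 2 was lowest, the library where Prss34, Cpa3, Ms4a2 and Fcer1a were highest. Prg2 exceeded Epx 37.5-fold to 73.5-fold in the libraries labelled knockout and 50.1-fold to 87.5-fold in wild type.

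Ear2, an eosinophil-associated ribonuclease that other myeloid cells also make, was the most negative of the 10 genes. It lies on chr14:44102654-44103531 (plus strand) and had 5.42, 5.40 and 3.97 TPM in the libraries labelled knockout, against 4.88, 6.73 and 5.76 TPM in those labelled wild type. Knockout 1 and 2 exceeded wild type 1, so the groups overlapped, and the difference of -0.23 ± 0.19 did not pass (adjusted p = 1.0, limma). Its value is uncertain, because 41.5% of the 50-base windows of its GENCODE transcript also occur in transcripts of other genes, among them Ear10 and Ear1, and how such reads were assigned is not given in the sources used here. Of the other 9 genes, 7 shared no such window, while Ms4a2 shared 2.69% and Il5ra 0.936%. The family members Ear3 and Ear12 are listed with the same 7.66 TPM over the 6 libraries, and Ear6, Ear7 and Ear1 had 3.62, 4.65 and 3.02 TPM.

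Of 8 eosinophil granule and ribonuclease genes measured, 0 rose and 0 fell, with 5 positive and 3 negative differences and a median of 0.10. Ear2, Ear6 and Rnase2a had the smallest p on that list. Among surface proteins and enzymes of eosinophils 0 of 8 passed as well, with 3 positive and 5 negative differences and a median of -0.10. The gene that lay farthest apart was Ccr3, the eotaxin receptor, with 5.12, 6.30 and 4.53 TPM in the libraries labelled knockout, against 9.38, 10.6 and 7.60 TPM in those labelled wild type. No value of one group reached the other, which held for 5.12% of all genes tested. The log2 difference of Ccr3, -0.78 ± 0.18, had an adjusted p of 1.0 (limma). The groups overlapped for other genes of the list. Siglecf, a sialic acid receptor listed here as Siglec5, ranged over 0.886 to 1.14 TPM with the knockout label, against 0.909 to 1.24 TPM in wild type. Alox15, the lipoxygenase of eosinophils, had 1.47, 2.16 and 1.54 TPM with the knockout label, against 2.99, 1.09 and 2.00 TPM in wild type. Cd24a, also found on B cell precursors and red cell precursors, was the other gene whose groups did not overlap, at 52.6 ± 4.2 TPM under the knockout label, against 60.0 ± 2.3 TPM in wild type (SD, n = 3 each). Markers of both lineages lay the same way: 7 of 7 B cell markers were negative, with a median log2 difference of -0.46, and so were 7 of 7 red cell markers, with a median of -0.47, while 0 of either passed (limma). Their part in the Cd24a value was not tested.

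Il5ra, the α chain of the interleukin 5 receptor that gives eosinophils their cytokine specificity (chr6:106710379-106749037, minus strand), was found at 25 to 45 reads per library. It had 0.323, 0.452 and 0.290 TPM in the libraries labelled knockout, against 0.465, 0.317 and 0.442 TPM in those labelled wild type. The log2 difference was -0.16 ± 0.23, and the groups overlapped. Csf2rb, the signalling chain it shares with the interleukin 3 and GM-CSF receptors, stood at 162 to 244 times the level of Il5ra under the knockout label and at 118 to 177 times in wild type. For the 11 genes of these receptors and of STAT5 signalling 0 rose and 0 fell, with 9 positive differences and a median of 0.14. The 3 with the smallest p were Pim1, Jak2 and the STAT5 target Cish, which differed by 0.32 ± 0.15, 0.16 ± 0.09 and 0.49 ± 0.30 on the log2 scale without passing (limma).

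Gata2, a transcription factor of basophil, mast cell and blood stem cell programmes (chr6:88198664-88207032, plus strand), was found in every culture. It stood at 0.521, 0.450 and 0.584 TPM in the libraries labelled knockout, against 0.510, 0.486 and 0.732 TPM in those labelled wild type. Wild type 3 was high and the other 5 values lay close together, with a log2 difference of -0.12 ± 0.21. Gata1, which eosinophils, mast cells, red cells and megakaryocytes use, was 2.11 to 4.24 times as abundant as Gata2. Of 18 transcription factors listed for these lineages 0 rose and 0 fell, with 9 positive and 9 negative differences and a median of 0.00. The inhibitor of differentiation Id1 stood at 3.74 ± 1.12 TPM under the knockout label, against 13.6 ± 14.8 TPM in wild type (SD, n = 3 each), with 30.5 TPM in wild type 2.

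The remaining lists of these lineages gave no call either. For histamine, proteoglycan and lipid mediators 0 of 9 genes passed, with a median of 0.02, and Hdc had 8.03 ± 0.45 TPM under the knockout label, against 7.36 ± 1.79 TPM in wild type (SD, n = 3 each). Slc18a2, the transporter that loads histamine into granules, had 1.11 ± 0.13 TPM under the knockout label, against 1.38 ± 0.20 TPM in wild type. Of 11 surface receptors 0 passed, with 9 positive differences and a median of 0.06. Itga2, the integrin chain CD49b, was the gene whose groups did not overlap, where 5.12% of all genes tested had such groups. It had 0.593 ± 0.098 TPM under the knockout label, against 0.914 ± 0.134 TPM in wild type. On the type 2 cytokine list 3 genes were measured (Il4, Il6 and Tslp) and 0 passed. Their median of 0.33 is the value of Il6, which rests on 23 reads over the 6 libraries. Il4, a cytokine that basophils and T cells make, had 0.761, 0.822 and 0.342 TPM in the libraries labelled knockout, against 0.168, 0.419 and 0.994 TPM in wild type. Those values show overlapping groups with a wide spread in each. For granule proteases 0 of 5 measured genes passed, with a median of 0.01.

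Several of the 10 genes shared a low library. Of the 10 genes, 5 had their lowest value in wild type 2: Mcpt8, Prss34, Cpa3, Ms4a2 and Prg2. Over all genes tested, 15.1% had their lowest value there. Markers of neutrophils and myeloid progenitors showed the same low library, in 8 of 9 and 7 of 10 measured genes, with a neutrophil sum of 7165 to 8323 TPM under the knockout label, against 5979 to 8732 TPM in wild type; their part was not tested. Ear2 was the contrary case, with its highest value in wild type 2. The likeness of a pair was measured as the root mean square difference of their log2(TPM + 0.1) values around each gene's own mean over the 6 libraries. Fcer1a was closest to Il5ra (0.12) and to Prss34 (0.13), and the least alike of the 45 pairs was Cpa3 with Epx (0.52). The pairs of Fcer1a are uncertain, since it had 8 to 14 reads per library and a spread no wider than counting alone gives. All of these values share the same 6 libraries and describe them only.

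**Figure D4:**
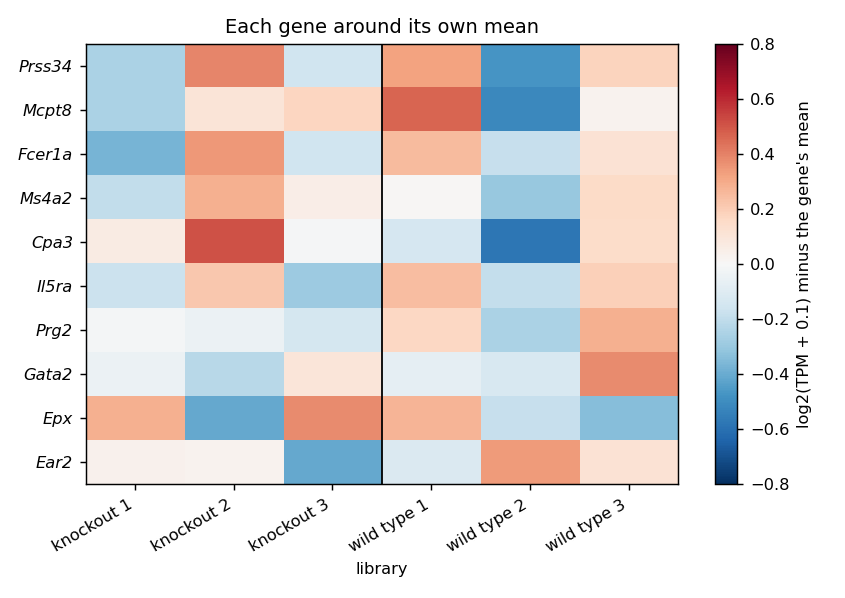
Level of each gene in each library as log2(TPM + 0.1) minus the gene's mean over the 6 libraries, labelled knockout left of the black line and labelled wild type right of it; red is above and blue below the mean. Wild type 2 is blue for every gene but Ear2, and Epx runs against Prss34 and Cpa3 in knockout 2 (-0.41 for Epx, 0.39 and 0.51 for Prss34 and Cpa3).

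Among 11650 genes with a mean of at least 1 TPM, the 4 closest to Mcpt8 by the same measure were Ifitm6 (0.06), AA467197 (0.09), Il1f9 (0.11) and Ifi27l2a (0.11), where the median gene was at 0.35. Ifitm6 had 50.2, 62.4 and 63.5 TPM in the libraries labelled knockout, against 72.8, 41.3 and 58.6 TPM in wild type, with wild type 1 highest and wild type 2 lowest as for Mcpt8. The 4 closest to Epx were Comtd1, Uqcrq, Gm6377 and Irf2bpl (0.11 to 0.14). Mcpt8 and Epx were themselves 0.38 apart by this measure, too far for any gene to be among the 4 closest to both.

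The division of libraries along the first component left these genes without a call. With a term for the side in the fit, their differences ran from -0.30 to 0.31 on the log2 scale, and the smallest adjusted p was 0.71 (limma). Within the side of knockout 1, knockout 2 and wild type 3, Cpa3 differed by 0.14 and Mcpt8 by -0.10; within the side of knockout 3, wild type 1 and wild type 2, they differed by 0.34 and 0.19. Mcpt8 thus changed sign between the sides, as did Ms4a2 (-0.11 and 0.20) and Gata2 (-0.51 and 0.20), while the other 7 genes did not. Each side holds a single library of one genotype.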

How the data were processed

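The submitters' processing notes name the build mm10 and the tools edgeR, featureCounts, Subread, Picard 1.127, TopHat2 2.0.12 and FastQC 0.11.2; annotation, counting and strand options are not stated there. The authors deposited 1 table with a TPM value per gene and library, a unit read from the values, which sum to 1000000 per library. It also holds the authors' log2 fold change and log2 CPM, a likelihood ratio score and p-values, per the file headers; a positive fold change there means higher in the libraries labelled knockout.

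Whole reads were recovered from ratios of TPM values between libraries, for 100% of 94034 values above 0, with a common factor set from the authors' log2 CPM (reads scaled to library size) for 427 genes. The genotypes were compared by limma 3.58.1 (R 4.3.3; mean-variance trend, two-sided) over 13722 genes that reached 0.1 TPM in 3 libraries, with values as log2(TPM + 0.1); ± gives SE for log2 differences and SD for TPM. P-values set the difference between groups against the spread between these samples. No exact permutation test is given, since 3 libraries a side allow no p below 0.1. The fit and the recovery were tested on simulated data. Members, 9 gene lists and 10 marker lists were chosen with earlier results of these data known. Named are all members, some but not all list genes with the smallest p, abundant markers and the 4 genes most like Mcpt8 and Epx. Kit, Csf2rb, Siglecf, Alox15, Hdc, Il4, Lyn and Btk were chosen after their values were seen. So were the Ear family and the named genes whose groups did not overlap. RefSeq synonyms matched 3 list genes under older symbols; list genes without a row were not analysed here. Shared windows were sought in GENCODE M21 transcripts, sense strand. The values of 1 list gene are not reported here.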

Additional observations from a re-analysis of the deposited data

How the results depend on the processing

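Other scalings, pseudocounts (0.01 and 1), filters (none, and 1 TPM, which left 6 of the 10 genes), limma-voom, the side term and single left-out libraries called 0 of the 10 genes and 0 genes in all. Without both knockout 3 and wild type 3, 738 genes were higher and 758 lower, 1496 in all, where genotype and side coincide. In that fit 0 of the 10 were called, Cpa3 coming nearest (0.64, unadjusted p = 0.037, adjusted p = 0.13, limma). There Mcpt8, Prss34, Epx and Prg2 reversed to -0.053, 0.14, -0.10 and 0.014. With single libraries left out, differences ranged from -0.24 to 0.25 for Mcpt8, -0.26 to 0.14 for Prss34, -0.33 to 0.034 for Fcer1a, -0.034 to 0.22 for Ms4a2 and -0.21 to 0.044 for Gata2, which all changed sign. They ranged from 0.18 to 0.54 for Cpa3, 0.023 to 0.42 for Epx, -0.34 to -0.084 for Ear2, -0.31 to -0.060 for Il5ra and -0.29 to -0.023 for Prg2, which kept theirs, as did all 10 in the scalings, pseudocounts, limma-voom and side term. The cause was not tested. With the replicate number as a block 0 genes and 0 of the 10 were called, with 232 genes at an unadjusted p under 0.05 in place of 299; the numbers are not shown to pair libraries (correlations of deviations -0.24, -0.15 and -0.53, with 0 libraries closest to their own number). Depth limits Fcer1a and Il5ra most, with 62 and 218 reads over the 6 libraries.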
